A study of Homo sapiens with 9 samples.

Results

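Genes of enzymes that remove superoxide and peroxides were followed in ARPE-19, a human cell line derived from retinal pigment epithelium, across vehicle, 100 µg/ml and 250 µg/ml cigarette smoke condensate. The list names 10 genes: SOD1, CAT, GPX1, GPX3, GPX4, GPX8, PRDX2, PRDX3, PRDX5 and PRDX6. Each was taken by its gene symbol, from a probe set naming that gene alone. Of these, 9 of 10 had such a probe set, 1 each, among 14207 genes in all, and PRDX5 is not analysed here. Each of the 3 groups had 3 arrays. All cells were grown to confluence with serum and then kept in medium with albumin. The condensate was a commercial stock in DMSO that contains nicotine, diluted in medium, and the labels do not say how long cells were exposed. Arrays of a group are numbered 1 to 3 with no word on separate cultures. The p-values therefore reflect the spread of these samples alone, and that spread may be technical.

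Superoxide is a by-product of respiration and of oxidases, and superoxide dismutases turn it into hydrogen peroxide. Catalase then breaks hydrogen peroxide down in peroxisomes, glutathione peroxidases reduce peroxides with glutathione, and peroxiredoxins do so through a reactive cysteine that thioredoxin mostly restores. The retinal pigment epithelium works at high oxygen tension, takes up the lipid-rich tips of photoreceptors and is known to depend on these enzymes. The series title names oxidative stress in these cells, and the comparisons ask whether the enzymes' transcripts differ between condensate and vehicle.

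None of the 9 measured genes passed the test at either dose, and GPX8 came nearest. GPX8, the glutathione peroxidase of the endoplasmic reticulum, had a mean 2.71-fold that of vehicle at 250 µg/ml and 2.03-fold at 100 µg/ml. The other 8 genes had mean differences between -0.37 and 0.42 log2 units. In limma, adjusted over 14207 genes, 0 of 9 passed an adjusted p of 0.05 at 100 µg/ml and 0 of 9 at 250 µg/ml. Over all genes tested, 0.0633% passed at 100 µg/ml and 0.549% at 250 µg/ml, so a count of 0 among 9 genes is near the background. At an unadjusted p under 0.05, GPX8 was the 1 gene of 9 in each comparison, against 14.6% and 16.6% of all genes. Means lay above vehicle for 6 of 9 genes at 100 µg/ml and 5 of 9 at 250 µg/ml, against 40.8% and 42.7% of all genes. The median change of the 9 was 0.07 at 100 µg/ml and 0.08 at 250 µg/ml, beside -0.05 and -0.04 over all genes. In an RNA extract of a whole culture, fewer expressing cells and less RNA per cell cannot be told apart.

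**Figure D1:**
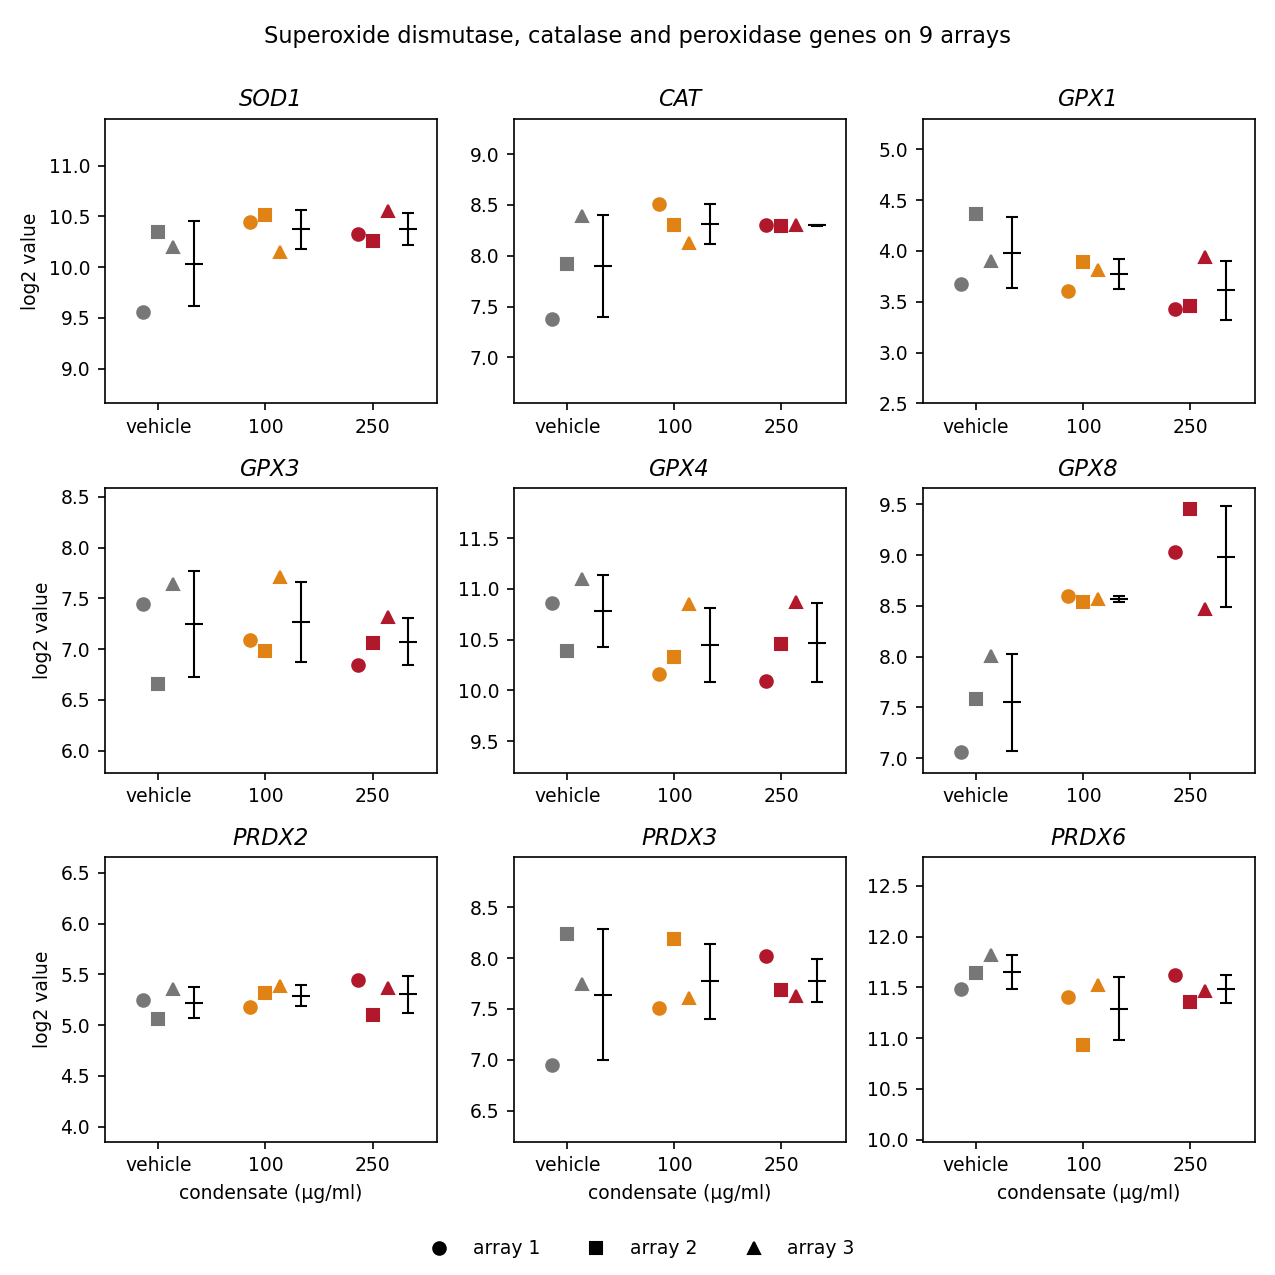
Deposited log2 values of the 9 measured genes on each array (points, shaped by array number), by condensate dose in µg/ml, with the group mean and SD beside the points (n = 3 per group). Every panel spans 2.8 log2 units. All arrays of both doses lie above the vehicle arrays for GPX8, and the groups overlap in the other 8 panels.

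Levels are log2 probe set values, which compare arrays for 1 gene but not 1 gene with another. Placing a gene against the median or lower quartile of all values, as below, is therefore only rough. Medians of the arrays lay between 4.42 and 4.59, with vehicle replicate 1 lowest. The upper quartile of that array was also the lowest, 6.45 against 6.57 to 6.73 on the others. Its lower quartile was the highest, at 3.10. Vehicle replicate 1 was the lowest vehicle array for 6 of the 9 genes, and for 41.0% of all genes. Of 14 measured pigment epithelium markers of 16 listed, 7 lay above the median of all values (MITF, OTX2, TYRP1, PMEL, RDH5, KRT8 and KRT18). Another 5, among them RPE65, RLBP1 and BEST1, lay below the lower quartile. The mean of these markers ran from 4.95 to 5.19 on the 6 condensate arrays, against 5.28 to 5.65 on vehicle arrays. Of the 14, 0 passed the test at either dose. At an unadjusted p under 0.05, 3 and 2 were lower, against 14.6% and 16.6% of all genes in either direction. Of endothelial markers 0 of 7, and of photoreceptor markers 0 of 5, had a mean above that median. Of mesenchymal markers 2 of 8 lay above it, PDGFRB and VIM, and of leukocyte markers 1 of 5, CD68. The mean of the mesenchymal markers ran from 4.42 to 4.65 on condensate arrays, against 4.58 to 5.22 on vehicle arrays, with DCN, LUM and THY1 below the lower quartile. Whether the marker levels bear on the genes below was not tested.

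GPX8 is anchored in the membrane of the endoplasmic reticulum and carries cysteine where GPX1, GPX3 and GPX4 carry selenocysteine. It is known to clear peroxide that oxidative protein folding makes there. Its log2 values were 7.06, 7.58 and 8.01 on the vehicle arrays, 8.60, 8.54 and 8.57 at 100 µg/ml, and 9.03, 9.46 and 8.47 at 250 µg/ml. Both doses lay above all vehicle arrays, the arrays at 100 µg/ml within a narrow range, and the arrays of the doses overlapped. Such separation, with the treated arrays higher, held for 1 of 9 genes at each dose, against 6.41% of all genes at 100 µg/ml and 8.61% at 250 µg/ml.

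At 250 µg/ml the mean of GPX8 was 8.99 ± 0.49, against 7.55 ± 0.47 in vehicle (SD, n = 3 each). The difference was 1.44 ± 0.28 log2 units (SE, 95% interval 0.79 to 2.08), with a limma adjusted p of 0.064. At 100 µg/ml the mean was 8.57 ± 0.03, and the difference from vehicle 1.02 ± 0.28 (95% interval 0.37 to 1.67, limma adjusted p = 0.21). The value at 250 µg/ml crossed the threshold in 6 of 15 other settings (scalings, filters, model choices and arrays left out), with adjusted p from 0.031 to 0.21 over the 15. It was past it without array 3 at 250 µg/ml, CSC_250 replicate 3 (1.69, adjusted p = 0.044) or without vehicle replicate 3 (1.67, 0.034). Without vehicle replicate 1 the difference was 1.19 (limma adjusted p = 0.091), and without vehicle replicate 2 it was 1.45 (0.12). Without CSC_250 replicate 1 the difference was 1.42 (0.21), and without CSC_250 replicate 2 it was 1.20 (0.21). At 100 µg/ml it was past the threshold in 0 of 15 settings, with adjusted p from 0.084 to 0.59.

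**Figure D2:**
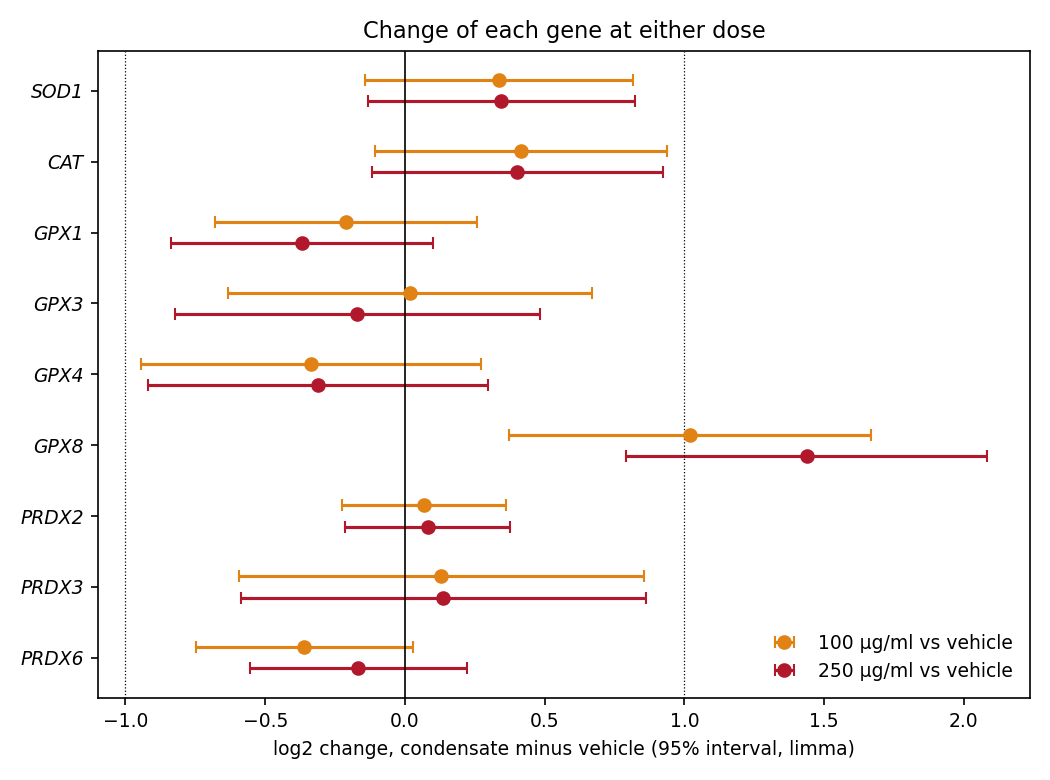
Log2 change of each gene at 100 µg/ml (orange) and 250 µg/ml (red) against vehicle, with limma's 95% interval (3 arrays per group); dotted lines mark a change of 2-fold. The intervals of GPX8 lie above 0 at both doses, and those of the other 8 genes cross 0 and stay inside the dotted lines.

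The promoter of GPX8 is shown because it is the gene with the largest difference. It is given next to that of GCLM, the glutathione synthesis gene that rose at 250 µg/ml (2.45 ± 0.31 log2 units, limma adjusted p = 0.020, past the threshold in 12 of 15 other settings). The windows, from RefSeq on GRCh38.p14, run 5′ to 3′ from 250 bases before to 50 after the gene's start. That of GPX8 lies at chr5:55159921-55160220 on the plus strand and that of GCLM at chr1:93909381-93909680 on the minus strand. Capitals mark the core of the antioxidant response element, the site NRF2 binds, searched as TGACNNNGC on both strands.
GPX8: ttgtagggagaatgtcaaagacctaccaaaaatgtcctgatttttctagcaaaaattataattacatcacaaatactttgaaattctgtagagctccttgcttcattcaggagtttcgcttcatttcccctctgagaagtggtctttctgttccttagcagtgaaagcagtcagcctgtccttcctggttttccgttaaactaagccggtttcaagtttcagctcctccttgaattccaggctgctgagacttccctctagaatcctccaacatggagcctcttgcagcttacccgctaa
GCLM: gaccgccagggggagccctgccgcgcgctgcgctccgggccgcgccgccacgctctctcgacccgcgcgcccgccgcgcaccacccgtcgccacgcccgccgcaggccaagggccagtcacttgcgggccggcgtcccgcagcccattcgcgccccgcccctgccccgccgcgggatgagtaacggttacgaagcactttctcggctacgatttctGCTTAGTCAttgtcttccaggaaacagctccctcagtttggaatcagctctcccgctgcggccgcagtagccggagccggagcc
In GCLM the core lies on the opposite strand, as GCTTAGTCA, and begins 34 bases before the start. In GPX8 these letters are not in the window. RefSeq windows were matched for 7 of the 9 measured genes, and 0 of their 9 windows held the core. Of all 35116 windows 13.3% held it, and of the 11 windows of 10 measured NRF2 targets 6 did. Those 6 belong to 5 genes, GCLM, ME1, PGD, PIR and TXNRD1. HMOX1, SLC7A11 and SRXN1, which also rose at 250 µg/ml, are not among them, nor is GCLC. Which of these had a window is not given, so GCLM does not stand for the genes that rose. A match or its lack in this window is a description and says nothing of binding.

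Of genes with a profile like that of GPX8 over the 9 arrays, the nearest were INTS7, FKBP14 and GCLC. Their root mean square differences from GPX8, each gene set to its own mean, were 0.197, 0.202 and 0.205 log2 units. At 250 µg/ml their differences were 1.28, 1.52 and 1.49 (limma adjusted p of 0.052, 0.051 and 0.052). For GPX1, the gene with the lowest change at 250 µg/ml, the nearest were ZNF345, LPAR4 and ZNF622, at 0.062, 0.083 and 0.101 log2 units. These 9 arrays share 3 treatments, so a small distance also picks up the treatment, and what the genes share was not examined.

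SOD1, the copper and zinc superoxide dismutase of the cytosol, had log2 values of 9.56, 10.35 and 10.19 in vehicle, 10.45, 10.52 and 10.15 at 100 µg/ml, and 10.32, 10.26 and 10.56 at 250 µg/ml. The first vehicle array was low, and the other 8 overlapped across groups. Its differences were 0.34 ± 0.21 at 100 µg/ml and 0.34 ± 0.21 at 250 µg/ml, and 0.10 and 0.11 without vehicle replicate 1. CAT, which encodes the haem enzyme catalase, had 7.38, 7.92 and 8.39 in vehicle, 8.51, 8.30 and 8.12 at 100 µg/ml, and 8.30, 8.29 and 8.30 at 250 µg/ml. The arrays at 250 µg/ml nearly coincided, inside the range of the vehicle arrays. Differences of CAT were 0.42 ± 0.23 and 0.40 ± 0.23, and 0.16 and 0.14 without vehicle replicate 1. For SOD1 the limma adjusted p was 0.48 and 0.44 at the doses, and for CAT 0.43 and 0.41.

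GPX4, the selenoenzyme that reduces lipid hydroperoxides in membranes and restrains ferroptosis, had 10.86, 10.39 and 11.09 in vehicle, 10.16, 10.33 and 10.85 at 100 µg/ml, and 10.09, 10.46 and 10.87 at 250 µg/ml. Array 3 was the highest of its group each time, and the groups overlapped. Its differences of -0.34 ± 0.27 and -0.31 ± 0.27 kept their sign in all 15 other settings of each comparison, and none passed the test (limma adjusted p = 0.58 at both doses). With 1 array left out they ran from -0.54 to -0.18 and from -0.51 to -0.12.

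GPX3, a glutathione peroxidase secreted from cells, had 7.44, 6.66 and 7.64 in vehicle, 7.09, 6.99 and 7.71 at 100 µg/ml, and 6.85, 7.06 and 7.31 at 250 µg/ml. Vehicle held nearly the whole range of the gene, from its lowest array almost to its highest. The difference of GPX3 had the opposite sign in 5 of 15 settings at 100 µg/ml (0.02 ± 0.29), quantile normalization among them, and in 1 of 15 at 250 µg/ml (-0.17 ± 0.29). GPX1, the glutathione peroxidase of cytosol and mitochondria, had 3.68, 4.37 and 3.90 in vehicle, 3.60, 3.89 and 3.82 at 100 µg/ml, and 3.43, 3.46 and 3.95 at 250 µg/ml. Each value lay below the median of its own array, and the signal of GPX1 is dim. Its differences were -0.21 ± 0.21 and -0.37 ± 0.21 (limma adjusted p = 0.66 and 0.40). With 1 array left out they ran from -0.36 to -0.02 at 100 µg/ml and from -0.54 to -0.18 at 250 µg/ml, nearest to 0 without vehicle replicate 2.

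PRDX6, a peroxiredoxin that also reduces phospholipid hydroperoxides, had 11.49, 11.64 and 11.82 in vehicle, 11.40, 10.94 and 11.52 at 100 µg/ml, and 11.62, 11.35 and 11.47 at 250 µg/ml. At 100 µg/ml 2 arrays lay below vehicle and the other overlapped it. The differences were -0.36 ± 0.17 at 100 µg/ml and -0.17 ± 0.17 at 250 µg/ml (limma adjusted p = 0.38 and 0.65), and ran from -0.48 to -0.18 and from -0.25 to -0.08 with 1 array left out. PRDX3, the peroxiredoxin of the mitochondrial matrix, had 6.95, 8.24 and 7.74 in vehicle, 7.51, 8.19 and 7.61 at 100 µg/ml, and 8.02, 7.69 and 7.63 at 250 µg/ml. The vehicle arrays enclosed all treated arrays. PRDX3 had differences of 0.13 ± 0.32 and 0.14 ± 0.32, and of -0.22 and -0.21 without vehicle replicate 1. PRDX2, a cytosolic peroxiredoxin abundant in red cells, had 5.25, 5.06 and 5.35 in vehicle, 5.18, 5.31 and 5.38 at 100 µg/ml, and 5.44, 5.10 and 5.37 at 250 µg/ml. It varied least of the 9, with a pooled SD of 0.148 beside a median of 0.217 over all genes. Differences of PRDX2 were 0.07 ± 0.13 and 0.08 ± 0.13.

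The 95% intervals bound what these arrays leave room for. They lay within 2-fold of vehicle at both doses for 8 of the 9 genes, all but GPX8. Over all genes the shares were 82.9% at 100 µg/ml and 80.7% at 250 µg/ml, so this count is near the background. Among the 8, the lowest bound was -0.95, for GPX4, and the highest 0.94, for CAT, both at 100 µg/ml. The intervals are not adjusted for the number of genes. For these 9 genes, the size of difference that 3 arrays per group would detect was not measured. In 5 of the 9 genes (SOD1, CAT, GPX1, GPX3 and PRDX3) the vehicle arrays had the largest SD of the groups, as in 45.9% of all genes.

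Between the doses, 0 of 9 genes and 0 of 14207 (0%) passed limma at 250 µg/ml against 100 µg/ml, and at an unadjusted p under 0.05 it was 0 of 9 and 1.84%. Groups did not overlap for 0 of 9 genes, against 6.17% of all genes. The largest difference was again that of GPX8, 0.42 ± 0.28 log2 units (95% interval -0.23 to 1.06). Arrays of the same number deviated together at the doses, and these tests and the interval leave that pairing out. With the array number as a block over all 9 arrays, 0 genes passed between the doses. A paired fit of the condensate arrays alone was not run. Within numbers, GPX8 at 250 µg/ml minus 100 µg/ml was 0.43, 0.92 and -0.10 for numbers 1, 2 and 3. The signs thus differed between numbers, and 2 of 3 were higher at 250 µg/ml. For PRDX3 the differences were 0.51, -0.51 and 0.02, with a mean of 0.01. No gene of the 9 had the same sign in all 3 numbers. Both doses were compared with the same vehicle arrays, so the similar differences at 100 and 250 µg/ml are not separate evidence.

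The rest of the families was measured for 7 of 8 genes. SOD2, the mitochondrial manganese enzyme, was found on no probe set of its own and is not analysed here. Of the 7, 0 passed limma at either dose. At an unadjusted p under 0.05, 1 was higher and 1 lower at 100 µg/ml, and 1 higher and 2 lower at 250 µg/ml. Over all genes the shares in either direction were 14.6% and 16.6%. PRDX1, the main cytosolic peroxiredoxin, averaged 9.40 ± 0.08 at 250 µg/ml, against 9.01 ± 0.04 in vehicle (SD, n = 3 each), with groups apart and a difference of 0.39 ± 0.09 (limma adjusted p = 0.083). At 100 µg/ml its difference was 0.30 ± 0.09 (0.22). The difference of PRDX1 missed the threshold in all 15 other settings of each dose. SOD3, the extracellular superoxide dismutase, had -0.33 ± 0.13 (0.26) at 250 µg/ml, GPX5 -0.24 ± 0.09 (0.23) and GPX2 -0.23 ± 0.15 (0.47), all at low signal. For SOD3 and GPX5 the groups were apart too, with the arrays at 250 µg/ml lower. These arrays all lay above vehicle for 1 of the 7 genes, against 8.61% of all genes, and below it for 2. For groups apart with condensate lower, here and in other lists, the share of all genes is not given.

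Among enzymes that reduce, repair or load the family, 0 of 12 measured passed limma at 100 µg/ml and 1 of 12, SRXN1, rose at 250 µg/ml, against 0.0633% and 0.549% of all genes called. At an unadjusted p under 0.05, 5 of 12 were higher at 100 µg/ml, and at 250 µg/ml 4 were higher and 1 lower, against 14.6% and 16.6% of all genes in either direction. SRXN1, sulfiredoxin, which restores overoxidized peroxiredoxins, averaged 9.23 ± 0.17 at 250 µg/ml, against 7.66 ± 0.34 in vehicle (SD, n = 3 each). It rose 2.98-fold, by 1.57 ± 0.18 log2 units (limma adjusted p = 0.013), a call lost in a fit of those 6 arrays alone (0.090) and without CSC_250 replicate 2 (0.098). GSR, glutathione reductase, which regenerates the glutathione that GPX enzymes spend, differed by 1.46 ± 0.39 at 100 µg/ml (0.21) and by 1.80 ± 0.39 at 250 µg/ml (0.079), the second past the threshold in 5 of 15 other settings. TXNRD1, thioredoxin reductase, had 0.85 ± 0.15 (0.13) and 0.75 ± 0.15 (0.069), and SESN3 -0.66 ± 0.45 (0.52) and -0.54 ± 0.45 (0.58). Without vehicle replicate 2 the differences of SESN3 were -0.04 at 100 µg/ml and 0.09 at 250 µg/ml. All condensate arrays lay above vehicle for 4 of 12 at each dose, against 6.41% and 8.61% of all genes. These were SRXN1, GSR and TXNRD1 at both doses, SESN1 at 100 µg/ml and GLRX at 250 µg/ml. TXNRD2, the mitochondrial thioredoxin reductase, lay below vehicle on all arrays at 250 µg/ml (-0.36 ± 0.13, limma adjusted p = 0.22). SESN1, GLRX and TXNRD2 were picked out after their values were seen. Of the 12 NRF2 targets measured for comparison, SRXN1 and TXNRD1 among them, 2 rose at 100 µg/ml, SLC7A11 and HMOX1, each past the threshold in 8 of 15 other settings, and 6 rose at 250 µg/ml. These 6 were HMOX1 (past the threshold in 15 of 15 other settings), PIR (14), SLC7A11, SRXN1 and ME1 (13 each) and GCLM (12). With only the 6 arrays at 250 µg/ml and in vehicle, HMOX1 alone of them passed. Over the 12, median differences were 0.85 and 1.53 log2 units, beside 0.07 and 0.08 for the 9 genes and -0.05 and -0.04 over all genes. The lists were chosen with earlier results of these data known, and were not tested against each other.

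**Figure D3:**
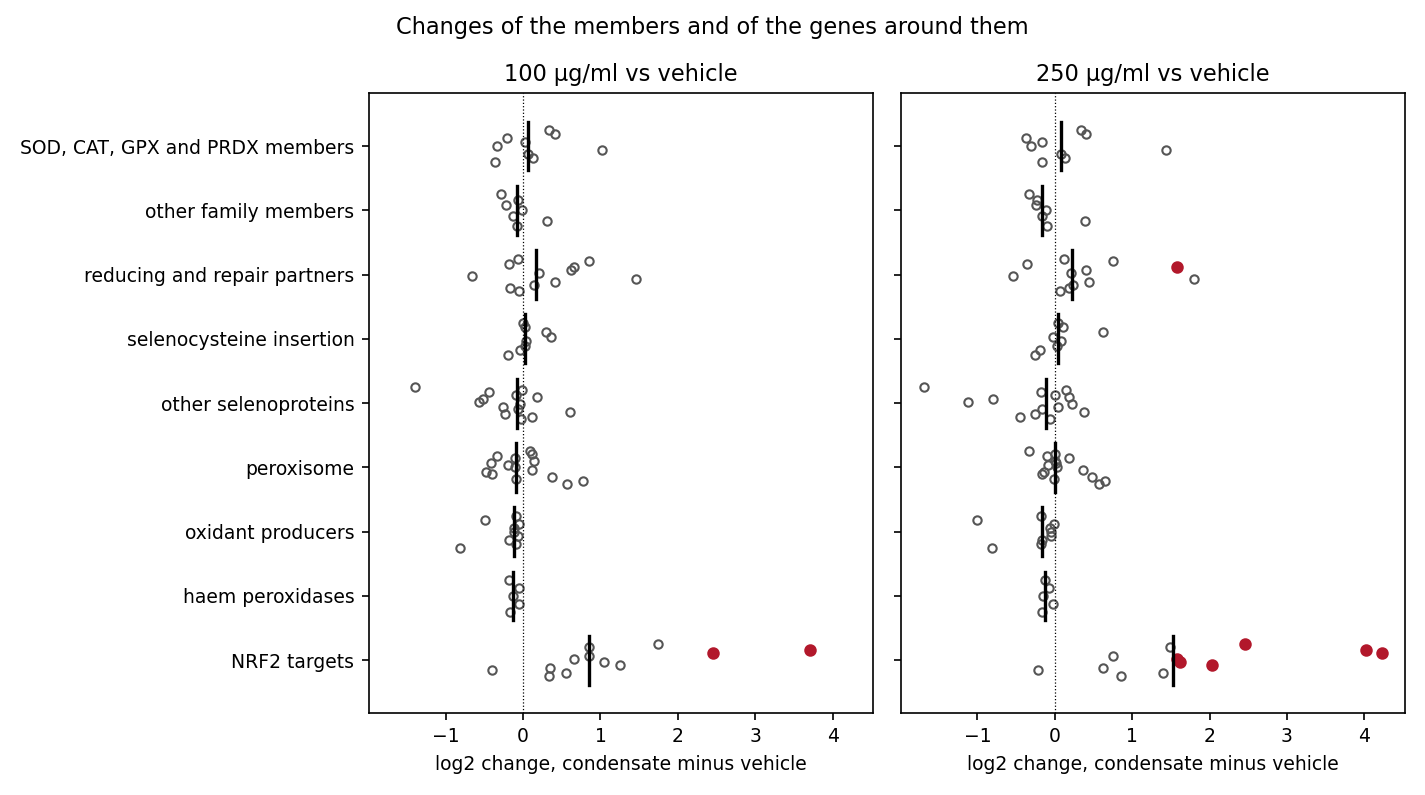
Log2 change against vehicle of every measured gene of the lists at 100 µg/ml (left) and 250 µg/ml (right). Red filled points passed limma's adjusted p of 0.05, open points did not, and black bars are list medians; red points appear among the NRF2 targets and, as SRXN1, among the reducing and repair partners.

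Selenoproteins other than the peroxidases included SELENOP, with the lowest difference of any list. Of 14 measured, 0 passed limma at either dose. At an unadjusted p under 0.05, 2 and 4 were lower, against 14.6% and 16.6% of all genes in either direction. All arrays at 250 µg/ml lay above vehicle for 0 of the 14, against 8.61% of all genes. They lay below it for 4, a count for which the share of all genes is not given. Only 42.7% of all genes had means above vehicle at that dose. SELENOP, the secreted selenium carrier, averaged 3.71 ± 0.22 at 250 µg/ml, against 5.41 ± 0.93 in vehicle (SD, n = 3 each), a difference of -1.70 ± 0.40 with groups apart (limma adjusted p = 0.093). That difference passed in 2 of 14 other settings, with limma adjusted p from 0.047 to 0.31. With 1 array left out it ran from -2.08 to -1.18. At 100 µg/ml the difference of SELENOP was -1.39 ± 0.40 (0.22). SELENOH had -1.12 ± 0.33 (0.16) and SELENOW -0.80 ± 0.24 (0.16) at 250 µg/ml, both with groups apart, and DIO2 -0.45 ± 0.36 (0.56). Of the 8 genes of selenocysteine synthesis and insertion 0 passed at either dose. At an unadjusted p under 0.05, 1 and 1 were higher, beside the same shares of all genes. EEFSEC, the elongation factor for selenocysteine, had 0.62 ± 0.14 at 250 µg/ml (limma adjusted p = 0.086), and TRNAU1AP -0.25 ± 0.16 (0.46).

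Catalase works in peroxisomes, and of 15 measured genes of peroxisomal import and beta-oxidation 0 passed limma at either dose. At an unadjusted p under 0.05, 1 was higher and 1 lower at 100 µg/ml, and 2 were higher at 250 µg/ml. Over all genes the shares in either direction were 14.6% and 16.6%. EHHADH, a beta-oxidation enzyme, had 0.78 ± 0.28 at 100 µg/ml (0.27) and 0.65 ± 0.28 at 250 µg/ml (0.29). ABCD3, a peroxisomal membrane transporter, had 0.57 ± 0.28 and 0.58 ± 0.28 (0.39 and 0.34), and HSD17B4 had 0.38 ± 0.17 and 0.49 ± 0.17 (0.36 and 0.22). Among producers of superoxide or hydrogen peroxide 0 of 9 passed at either dose. At an unadjusted p under 0.05, 1 and 1 were lower, beside the same shares of all genes. As deposited, 9 of 9 had means below vehicle at both doses. Most genes did so, since 40.8% and 42.7% of all genes had means above vehicle, and 4 of the 9 had differences smaller than 0.1 at 250 µg/ml. After quantile normalization NOX3 and XDH lay above vehicle at 100 µg/ml. Of the producers, this was looked at only for NOX3, XDH, NOX4 and MAOA. MAOA, monoamine oxidase A, which makes hydrogen peroxide, averaged 4.56 ± 0.20 at 250 µg/ml, against 5.37 ± 0.10 in vehicle (SD, n = 3 each), a difference of -0.81 ± 0.15 with groups apart (limma adjusted p = 0.054, and 0.13 at 100 µg/ml), past the threshold at 250 µg/ml in 3 of 15 other settings. NOX4, an oxidase that makes hydrogen peroxide, had -1.01 ± 0.61 (0.44) at 250 µg/ml with a vehicle SD of 1.34, and -0.35 without vehicle replicate 2. Of 5 haem peroxidases 0 passed at either dose (0 and 0 at an unadjusted p under 0.05), with differences between -0.18 and -0.03 log2 units, at low signal. LPO had the opposite sign after quantile normalization, where PTGS1 was not looked at.

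**Figure D4:**
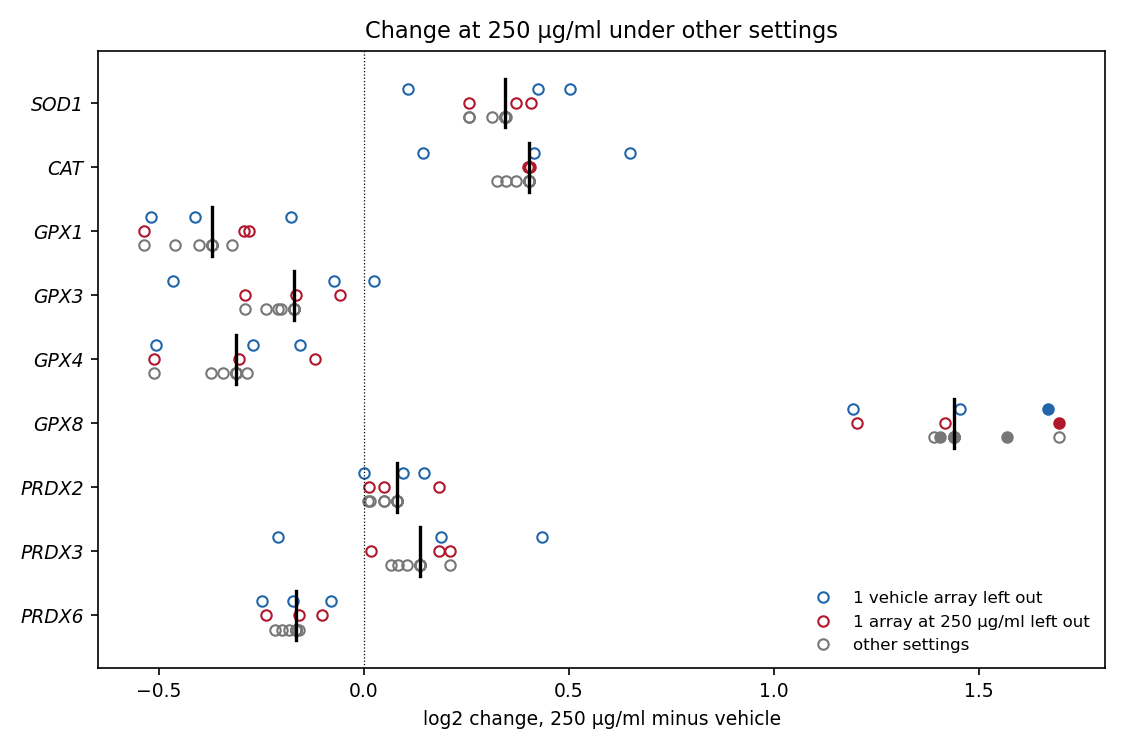
Log2 change at 250 µg/ml against vehicle of the 9 genes (black bars) and its value with 1 vehicle array left out (blue), 1 array at 250 µg/ml left out (red) or another setting (grey); filled points passed limma's adjusted p of 0.05. Filled points appear for GPX8 alone, and PRDX3 and GPX3 have points on both sides of 0.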

How the data were processed

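Total RNA from ARPE-19 cells was hybridised to 9 Affymetrix whole-transcript arrays, 3 per group. The authors deposited log2 values, 1 per probe set; RMA, Partek and genome build hg18 appear in the submitters' processing notes, without settings. RMA is meant to bring arrays to a common scale, so a difference in RNA content per cell cannot be read from the values. The deposited arrays still differed, with medians from 4.42 to 4.59 and upper quartiles from 6.45 to 6.73.

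Of 17629 probe sets, the platform annotation gives 1 gene for 14378, several for 2405 and none for 846. RefSeq (GRCh38.p14) gave current symbols through the gene number, except for 28 probe sets. The probe set with the highest mean was kept for 169 genes with several, leaving 14207 genes. One linear model of all 9 arrays, with a mean for each group, was fitted in limma 3.58.1 (R 4.3.3), and moderated p-values were adjusted over 14207 genes by Benjamini-Hochberg (threshold 0.05). The fit was tested on simulated data with added changes, and their recovery is not reported here. Changes are log2 differences, condensate minus vehicle, with moderated SE. No detection calls were used, and the number of arrays limits precision.

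All members are named; from each list of related genes, the text names those past the threshold and up to 4 others by the size of their change at 250 µg/ml. Members and lists were chosen with earlier results of these data known.

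Array numbers were checked as pairs from deviations around group means over all genes. Between the doses same-numbered arrays correlated at 0.44 to 0.68 in 3 of 3 pairs, so the numbers were taken to pair them, from the data and not the labels. With vehicle 1 of 3 pairs exceeded 0.1 at either dose, and no pairing was assumed. Proteins were not printed, and PRDX5 and SOD2 are not analysed here. Other settings tried were scaling, dim genes, probe sets, samples, block, weights, variance trend and single arrays left out.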

Additional observations from a re-analysis of the deposited data

How the results depend on the processing

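Over the 9 genes, 0 passed at 100 µg/ml and 0 between the doses in every setting tried. At 250 µg/ml the count was 0 in the main fit. It was 1, GPX8, after centring each array on its median, without dim genes, with array weights and with a variance trend. The count stayed 0 after quantile normalization, with probe sets averaged and with only the 6 arrays of the comparison. With the replicate block and without the third array of each dose it was 0 too. Single arrays left out gave 0 to 1. GPX1 is itself a dim gene and drops out of the setting without dim genes. Other members passed in 0 settings. Members had the opposite sign in 8 of 134 values at 100 µg/ml, 2 of 134 at 250 µg/ml and 24 of 134 between the doses. The median of the 9 ran from -0.01 to 0.18 at 100 µg/ml and from -0.07 (without vehicle replicate 1) to 0.18 at 250 µg/ml with single arrays left out.

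Over all genes, 9 passed at 100 µg/ml. The count was 4 after quantile normalization, 1 with only the 6 arrays of the comparison, 73 with array weights, 47 with the third array of each dose left out (added after seeing the data) and 1 to 57 with single arrays left out. At 250 µg/ml 78 passed. The count was 153 after centring, 129 after quantile normalization, 140 without dim genes, 1 with only the 6 arrays, 234 with array weights, 164 with a variance trend, 167 with the third array of each dose left out, and 4 to 296 with single arrays left out. Rises and falls were 55 and 23 as deposited, 82 and 71 after centring, and 65 and 64 after quantile normalization. With the replicate block 3 genes passed at 100 µg/ml, 122 at 250 µg/ml and 0 between the doses, and the block changed no call among the 9 genes. The cause of these shifts was not tested.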
